A study of Homo sapiens with 15 samples.

Results

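Genes of the paraxial mesoderm and of the somite segmentation clock were followed in self-renewing neuromesodermal progenitors (srNMPs) of human origin and in the cells made from them. The members were fixed by name as TBX6, MSGN1, MESP2, LFNG, HES7, DLL3, MEOX1, MEOX2, TCF15 and FOXC2, which are 10 of the 17999 gene symbols in the expression table. All 10 were found, and their messenger RNA was described in each of 15 libraries. Values are FPKM, the fragments per kilobase of transcript scaled to the mapped fragments of the library, so that levels of different genes can be set side by side.

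Both parent lines, H1 and HUES9, are established lines of human embryonic stem cells (ESCs), and every culture was wild type. The study took srNMPs from these lines towards neurons and towards skeletal muscle. Undifferentiated ESCs were sequenced from HUES9 only, with no induction. srNMPs were sequenced at passage 8 and passage 25 from each line, and the labels give neural induction as their treatment. Neuron progenitors under neural induction were sequenced at day 7 under 2 conditions, RABC and RASS, from each line; the labels do not spell out either name. Dorsal neurons and ventral neurons under neural induction were also sequenced from each line, with no day given. Skeletal muscle under skeletal muscle induction was sequenced at day 40 and day 50, from HUES9 only. A group therefore held 1 library of each line or a single HUES9 library, and no culture was repeated within a line.

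Paraxial mesoderm forms from bipotent cells of the tail bud, which can also give rise to spinal cord. T-box and basic helix-loop-helix factors commit these cells to the presomitic mesoderm, where Notch signalling and its repressors oscillate as a segmentation clock. Each cycle ends with the budding of a somite, and somites later form sclerotome, dermomyotome and, from the latter, skeletal muscle. Several Notch components of the clock also act in the developing neural tube, so their transcripts are not restricted to mesoderm.

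The promoters of the members that differ most in their place along this route are shown first. RefSeq promoters of GRCh38.p14, which run from 250 bases before to 50 bases after the start site, were matched for 6 of the 10 members: TBX6, MSGN1, MESP2, LFNG, HES7 and MEOX2. They are reference sequences and not sequences read from these cultures, and their build differs from the hg18 build named in the submitters' processing notes. The 4 printed here are MSGN1 (chr2:17816210-17816509, plus strand), a presomitic factor, MESP2 (chr15:89776082-89776381, plus strand), a factor of the forming somite boundary, LFNG (chr7:2512279-2512578, plus strand), a clock enzyme, and MEOX2 (chr7:15686634-15686933, minus strand), a somite factor. Each reads 5′ to 3′ along the gene, and capitals mark matches on either strand to the RBPJ core TGGGAA (bound by the Notch effector RBPJ), the T-box core GGTGTG, the TCF core CTTTGA (bound by the Wnt effectors) and the TATA box TATAAA.
MSGN1: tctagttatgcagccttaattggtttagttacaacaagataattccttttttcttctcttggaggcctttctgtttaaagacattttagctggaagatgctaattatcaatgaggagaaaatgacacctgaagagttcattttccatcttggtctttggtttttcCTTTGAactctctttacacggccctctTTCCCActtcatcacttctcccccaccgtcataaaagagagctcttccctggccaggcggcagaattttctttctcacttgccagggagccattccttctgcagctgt
MESP2: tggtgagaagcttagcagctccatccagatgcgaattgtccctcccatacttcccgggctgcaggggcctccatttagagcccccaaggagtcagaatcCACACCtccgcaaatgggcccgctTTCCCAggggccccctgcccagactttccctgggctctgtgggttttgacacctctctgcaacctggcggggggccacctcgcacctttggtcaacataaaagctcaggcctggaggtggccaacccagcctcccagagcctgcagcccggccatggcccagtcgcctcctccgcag
LFNG: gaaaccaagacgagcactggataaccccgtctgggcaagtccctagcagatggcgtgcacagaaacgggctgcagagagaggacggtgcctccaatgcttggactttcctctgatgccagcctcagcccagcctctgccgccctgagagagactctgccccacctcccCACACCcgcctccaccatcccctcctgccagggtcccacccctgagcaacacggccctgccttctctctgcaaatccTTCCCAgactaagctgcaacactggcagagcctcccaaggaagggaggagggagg
MEOX2: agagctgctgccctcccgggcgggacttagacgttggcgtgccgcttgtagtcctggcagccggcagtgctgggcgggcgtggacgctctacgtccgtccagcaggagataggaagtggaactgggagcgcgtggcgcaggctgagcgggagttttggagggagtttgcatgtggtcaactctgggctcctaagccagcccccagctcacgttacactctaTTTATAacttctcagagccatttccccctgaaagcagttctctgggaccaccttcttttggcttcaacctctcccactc

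The MESP2 and LFNG promoters each held 1 RBPJ core and 1 T-box core. In MESP2 these began at -127 and -151 from the start site, and in LFNG at -5 and -82. The MSGN1 promoter held an RBPJ core at -58 and a TCF core at -85. The MEOX2 promoter held none of these 3 and had a TATA box at -29. Neither the TBX6 nor the HES7 promoter had any of the 4 capitalised motifs. The E-box CANNTG was found in TBX6 at -180, in MSGN1 at -126, 18 and 44, in MESP2 at -225 and -141, in LFNG at -204 and in MEOX2 at -82, and the N-box CACNAG, a site bound by HES repressors, in HES7 at -115. These motifs are short. Among 35116 RefSeq promoters of the same length, 24% held the RBPJ core, 16.8% the T-box core, 12.9% the TCF core, 11.5% the TATA box, 68.7% the E-box and 38% the N-box on either strand. A match is a description of the letters and not a bound site. The MSGN1 window had 42.3% G or C, against 63.0% in MESP2, 62.3% in LFNG, 59.7% in MEOX2 and a median of 58.7% over all promoters.

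The library labels were checked first. POU5F1, a pluripotency factor, stood at 691 FPKM in the ESC library and at no more than 0.31 elsewhere. TBXT, the defining T-box factor of the tail bud, stood at 2.11 and 13.4 FPKM in passage 8 srNMPs of H1 and HUES9 and at 1.87 and 7.39 in passage 25, against 0.18 in ESCs. CDX2, a caudal homeobox factor, ranged from 0.01 FPKM in H1 passage 8 srNMPs to 39.0 in HUES9 passage 8 srNMPs, so this marker was close to absent from 1 srNMP library. MYOG, a myogenic regulator, reached 312 FPKM at day 40 and 539 at day 50 of muscle culture, and TUBB3, a neuronal tubulin, 503 to 610 in the neuron libraries. Relative depth, estimated from the spacing of low FPKM values, was 0.954 to 1.051 over the 15 libraries. The RASS libraries stood apart. Across genes, their HUES9 minus H1 difference correlated with that of each of the other 5 paired groups at r = -0.533 to -0.167, whereas the other 10 pairs of groups gave 0.069 to 0.377; genes are not independent replicates. The line labels of the RASS libraries thus ran against those of the other groups, and the progenitor and line comparisons, which rest on these libraries, are also given without them.

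**Figure D1:**
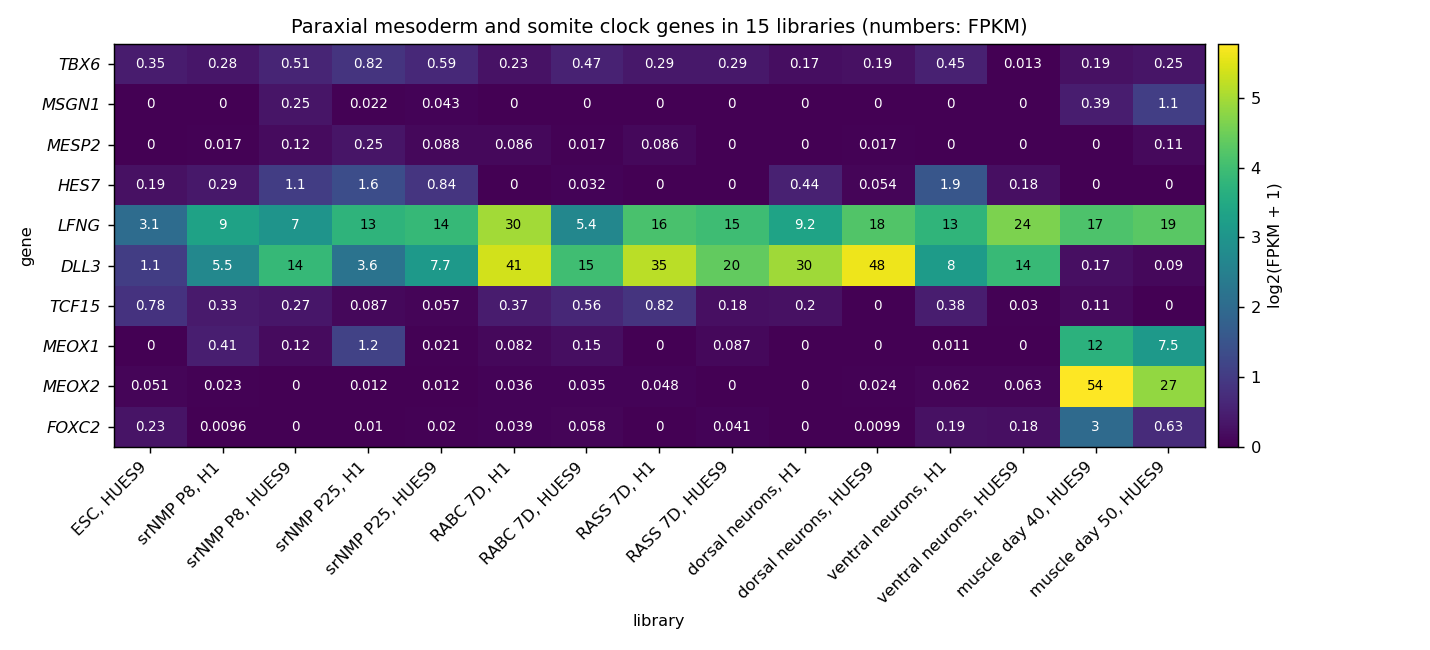
FPKM of the 10 members (rows) in each of the 15 libraries (columns, grouped by culture), printed in each cell, with colour on a log2(FPKM + 1) scale. LFNG and DLL3 fill most of the srNMP, progenitor and neuron columns, MEOX1 and MEOX2 stand out in the muscle columns, and TBX6, MESP2 and TCF15 stay under 1 FPKM in every column.

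The presomitic transcription factors were low throughout. TBX6, the T-box factor that turns tail bud cells from a neural to a paraxial fate, was at 0.283 FPKM in H1 and 0.511 in HUES9 srNMPs of passage 8 and at 0.822 and 0.588 in those of passage 25. It was at 0.349 in ESCs, at 0.225 and 0.472 in RABC and 0.289 and 0.290 in RASS progenitors, at 0.167 and 0.190 in dorsal and 0.453 and 0.0133 in ventral neurons, and at 0.191 and 0.252 in muscle of day 40 and day 50. Passage 25 srNMPs were thus the highest group and lay above all other libraries, while passage 8 srNMPs overlapped ESCs and RABC progenitors. The highest value corresponds to an estimated 64 fragments and the ESC value to 26. In HUES9 the passage 25 library had an estimated 46 fragments and the passage 8 library 42, so their order rests on few reads. TBX6 did not reach 1 FPKM in any library and so was not tested in the main fit. When it was fitted without the expression filter, its change from ESCs to srNMPs was 0.17 on the log2(FPKM + 1) scale (limma adjusted p = 0.698), and from srNMPs to neurons -0.36 (limma adjusted p = 0.0682). From passage 8 to passage 25 the change in that fit was 0.29 (limma unadjusted p = 0.169), and it was not called.

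MSGN1, mesogenin 1, the basic helix-loop-helix factor that drives presomitic maturation, was listed at 0 in ESCs, in H1 srNMPs of passage 8 and in all 8 progenitor and neuron libraries. It was at 0.246 FPKM in HUES9 srNMPs of passage 8, an estimated 12 fragments, and at 0.0217 and 0.0432 in H1 and HUES9 srNMPs of passage 25, an estimated 1 and 2 fragments. The 2 muscle libraries were the highest, with 0.387 FPKM at day 40 and 1.10 at day 50, or 18 and 49 estimated fragments. Muscle and srNMP libraries did not overlap. MSGN1 passed the filter only through the day 50 library.

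MESP2, which sets the anterior boundary of the next somite, was at 0.0169 and 0.117 FPKM in passage 8 srNMPs, at 0.248 and 0.0881 in passage 25 srNMPs, at 0.0861 and 0.0171 in RABC and 0.0865 and 0 in RASS progenitors, and at 0.110 in day 50 muscle. The dorsal neuron library of HUES9 held 0.0175, and MESP2 was listed at 0 in ESCs, the H1 dorsal library, both ventral neuron libraries and day 40 muscle. The top library, H1 passage 25 srNMPs, had an estimated 14 fragments. Such values overlapped between srNMPs, progenitors and muscle, and the depth cannot order them.

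**Figure D2:**
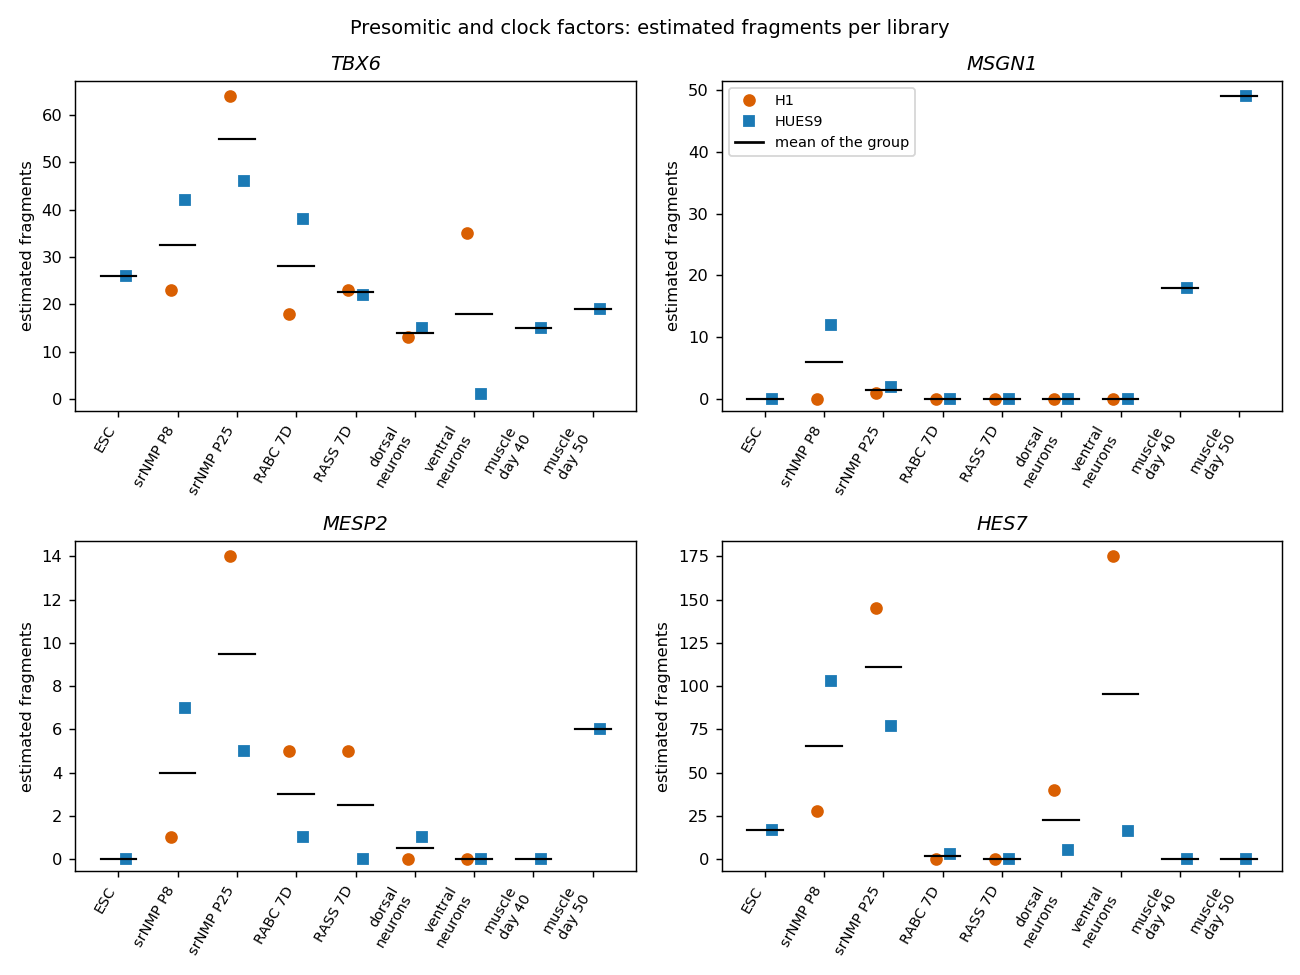
Estimated fragments (y axis, a scale per gene) of the presomitic factors TBX6, MSGN1 and MESP2 and of the clock repressor HES7 by group, with circles for H1, squares for HUES9 and lines for group means. TBX6 peaks at 64 fragments in H1 passage 25 srNMPs, MSGN1 at 49 in day 50 muscle, MESP2 at 14 in H1 passage 25 srNMPs and HES7 at 175 in H1 ventral neurons.

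Of the clock genes, the repressor HES7 was low and uneven, and the Notch components LFNG and DLL3 were present in most cultures. HES7, the oscillating repressor at the core of the clock, was at 0.295 and 1.07 FPKM in passage 8 srNMPs of H1 and HUES9 and at 1.59 and 0.842 in passage 25 srNMPs. ESCs held 0.195. The H1 neurons held 0.440 (dorsal) and 1.94 (ventral), and the HUES9 neurons 0.0543 and 0.182. HES7 was listed at 0 in both muscle libraries, both RASS libraries and H1 RABC, and at 0.0319 in HUES9 RABC. All 4 srNMP libraries were thus above ESCs and above all 4 day 7 progenitor libraries, and the highest single value was in H1 ventral neurons, an estimated 175 fragments.

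LFNG, lunatic fringe, a glycosyltransferase that modifies Notch and cycles in the presomitic mesoderm, was present in every library. It was lowest in ESCs at 3.13 FPKM. srNMPs held 8.96 and 6.96 at passage 8 and 12.5 and 13.5 at passage 25. Both passages lay above ESCs, and passage 25 lay above passage 8 in each line. RABC progenitors held 30.1 (H1) and 5.40 (HUES9), the widest spread of any group, and RASS progenitors 16.4 and 14.8. Dorsal neurons held 9.18 and 17.5, ventral neurons 12.6 and 23.6, and muscle 16.8 at day 40 and 18.7 at day 50. Apart from ESCs and passage 8 srNMPs, neighbouring groups mostly overlapped in this order.

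DLL3, a Notch ligand-like protein that acts within the cell and dampens Notch signalling, was at 1.07 FPKM in ESCs, 5.48 and 13.5 in passage 8 srNMPs and 3.59 and 7.67 in passage 25 srNMPs. It stood at 40.7 and 15.1 in RABC progenitors, 34.8 and 19.9 in RASS progenitors, 29.6 and 48.3 in dorsal neurons and 8.01 and 13.7 in ventral neurons. Muscle held 0.173 at day 40 and 0.0896 at day 50. All progenitor and dorsal neuron libraries were above all srNMP libraries, ventral neurons overlapped srNMPs, and both muscle libraries were below every other library.

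**Figure D3:**
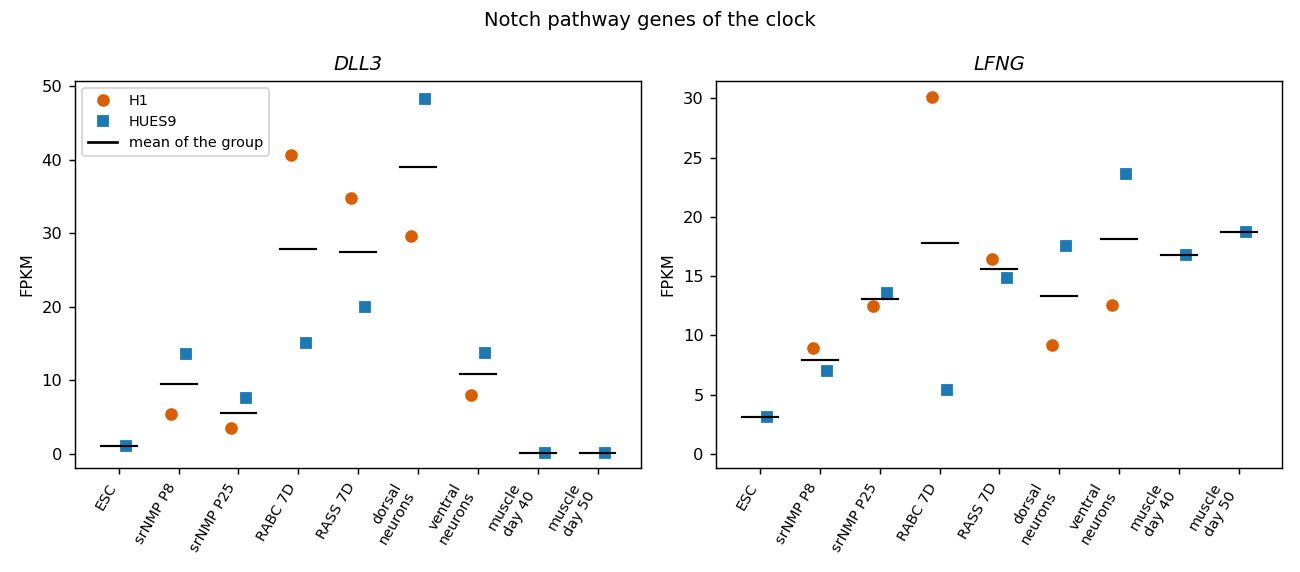
FPKM of LFNG and DLL3 by group, with circles for H1 libraries, squares for HUES9 libraries and lines for group means. DLL3 falls to 0.173 and 0.0896 in muscle, while LFNG stays at 16.8 and 18.7 there.

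The somite transcription factors separated muscle from all other cultures. MEOX2, a homeobox factor of somites and limb muscle precursors, was at 53.6 FPKM at day 40 and 27.5 at day 50 of muscle culture, and at 0.0633 or less in the other 13 libraries, where at most 5 fragments were estimated. MEOX1, its paralogue that helps to pattern the sclerotome and dermomyotome, was at 12.1 and 7.54 in muscle. Among srNMPs it was at 0.406 in H1 and 0.120 in HUES9 at passage 8, and at 1.196 and 0.0211 at passage 25, so that H1 exceeded HUES9 at both passages. Outside muscle and srNMPs it was at 0.154 or less. All MEOX1 and MEOX2 values in muscle were above all others.

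FOXC2, a forkhead factor of presomitic and somitic mesoderm, was at 3.01 FPKM at day 40 and 0.630 at day 50, against 0.230 in ESCs, 0.192 and 0.176 in ventral neurons and 0.0580 or less in the other libraries. TCF15, paraxis, a basic helix-loop-helix factor that keeps somites epithelial, did not follow these genes. Its highest values were 0.818 in the H1 RASS library and 0.783 in ESCs, each under 30 estimated fragments, and it lay within 0.273 to 0.331 in passage 8 srNMPs and 0.0574 to 0.0865 in passage 25 srNMPs. It was at 0.115 in day 40 muscle and listed at 0 in day 50 muscle. It was not tested in the main fit; without the filter, its srNMP minus ESC change was -0.70 (limma adjusted p = 0.0829).

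**Figure D4:**
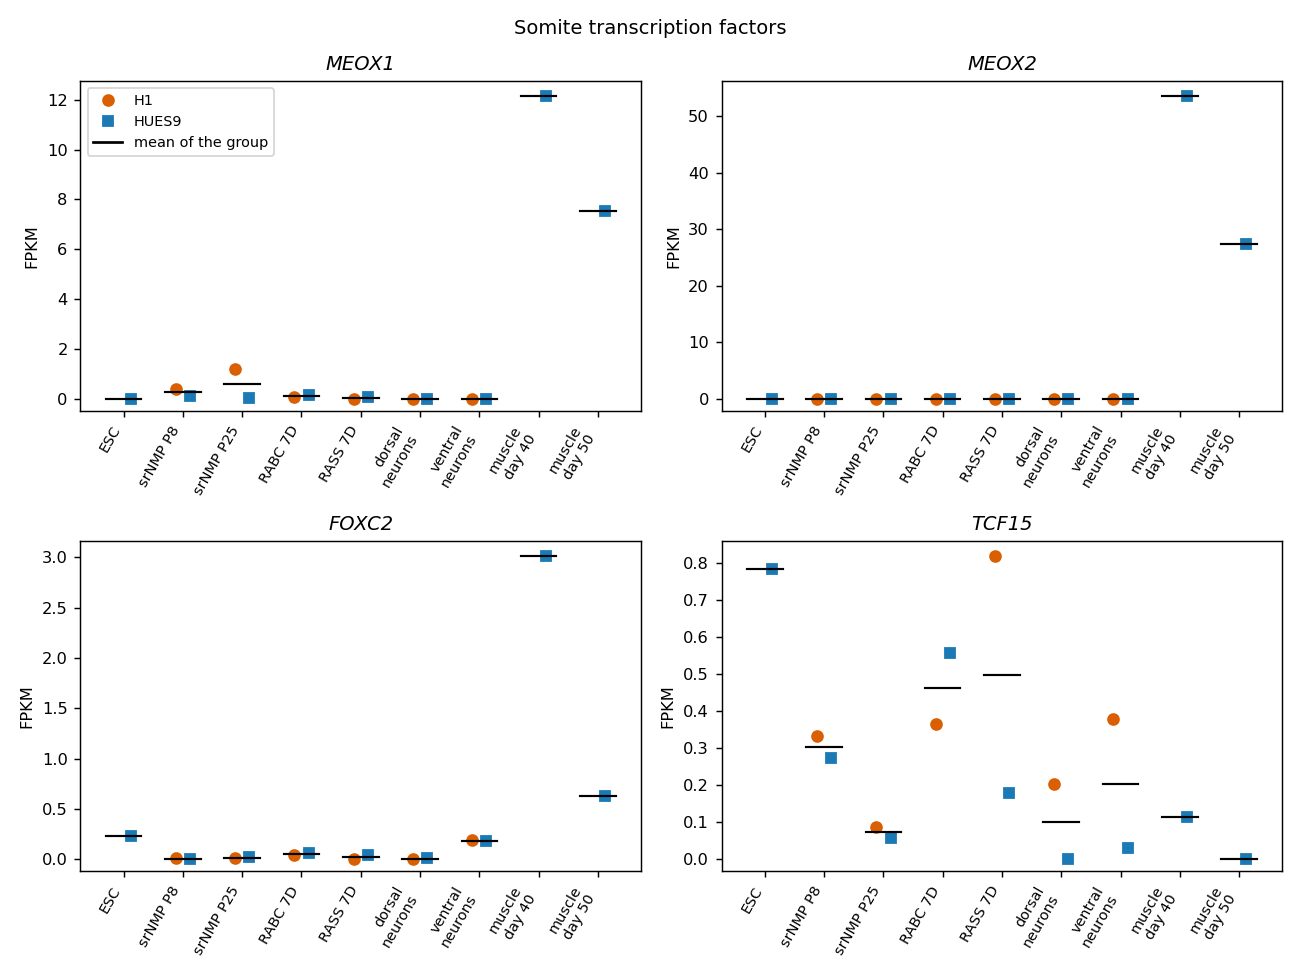
FPKM of the somite factors TCF15, MEOX1, MEOX2 and FOXC2 by group, with circles for H1 libraries, squares for HUES9 libraries and lines for group means. MEOX1 and MEOX2 are high in both muscle libraries, FOXC2 is higher at day 40 than at day 50, and TCF15 is near 0 in muscle.

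Changes were then tested with limma on log2(FPKM + 1) over the 14129 genes that reached 1 FPKM in at least 1 library. Each group had its own mean, and cell line was a term of the model. Of the members, 7 were tested and 3 were not, namely TBX6, MESP2 and TCF15. MSGN1, FOXC2 and MEOX2 entered the test only through muscle libraries, so counts of members called in comparisons with muscle do not speak for the list of 10. Since ESCs and each muscle day had 1 library, the error of those comparisons is that of the groups with both lines. No spread between muscle libraries enters the standard errors and p-values. MEOX2, FOXC2 and MSGN1 were at 0.246 FPKM or less in the groups with both lines, where log2(FPKM + 1) leaves little spread. Their small standard errors in comparisons with muscle and with ESCs reflect that. In bulk RNA, fewer cells of a type and less RNA per cell cannot be told apart.

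The comparison of srNMPs with ESCs asks whether the progenitors already carried paraxial transcripts. None of the 7 tested members passed the adjusted threshold, against 16.7% of all genes tested (8.73% higher and 7.93% lower), and 2 of them (DLL3 and FOXC2) had an unadjusted p under 0.05. DLL3 averaged 7.57 ± 4.31 FPKM (SD, n = 4) in srNMPs against 1.07 in the ESC library, a log2 change of 2.03 ± 0.72 (SE, limma adjusted p = 0.103). LFNG averaged 10.5 ± 3.07 against 3.13, a log2 change of 1.36 ± 0.80 (limma adjusted p = 0.303). HES7 differed by 0.54 ± 0.47 (limma adjusted p = 0.495) and MSGN1 by 0.13 (limma adjusted p = 0.496). FOXC2 differed by -0.28 ± 0.08 (limma adjusted p = 0.0603), with 0 to 0.0199 FPKM in srNMPs against 0.230 in ESCs, an estimated 22 fragments. It passed the threshold in 5 of 11 alternative fits. These were a pseudocount of 0.1 FPKM, no filter, quantile normalization, no cell line term and the RASS lines exchanged. In the other 6, which include equal totals and each srNMP library left out, it stayed uncalled. The same comparison held tail bud genes that rose: 4 of 12 tested were called higher and 1 lower, with a median log2 change of 1.61 against 0.07 over all genes. These included FGF17 and FGF8, secreted growth factors of the caudal progenitor zone, and SP5, a Wnt target, with log2 changes of 7.23 for FGF17, 4.79 for SP5 and 4.41 for FGF8. Of 21 other clock and presomitic genes, 3 were called higher and 1 lower. DLL1, the Notch ligand of presomitic mesoderm and of neural precursors, was at 23.4 ± 11.7 FPKM (SD, n = 4) against 2.73, a log2 change of 2.73 ± 0.69 (limma adjusted p = 0.0387), and AXIN2, a Wnt feedback gene, rose by 1.65 ± 0.38 (limma adjusted p = 0.0289). Of 18 other somite genes, 1 was called higher, EN1, a homeobox gene of the midbrain-hindbrain boundary, spinal interneurons and dermomyotome, at 41.0 ± 8.21 FPKM (SD, n = 4) and listed at 0 in ESCs. Of 8 genes of other mesoderm, 4 were called lower and 1 higher, with a median of -0.74. The gene called higher was PAX8, a factor of intermediate mesoderm and of the midbrain-hindbrain region, with a log2 change of 4.89 ± 0.73 (limma adjusted p = 0.00515).

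Between passage 25 and passage 8 no member was called, and 0% of all genes were called, with 255 of 14129 at an unadjusted p under 0.05 and no member among them. With 1 library in each line and passage, TBX6 and LFNG were higher at passage 25 in both lines, and DLL3 and TCF15 were lower in both. The DLL3 difference was -0.496 in H1 and -0.745 in HUES9 on the log2(FPKM + 1) scale. HES7, MEOX1, MESP2 and MSGN1 were higher at passage 25 in H1 and lower in HUES9. MEOX2 and FOXC2 stayed at 0 to 2 estimated fragments in all 4 libraries.

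In day 7 progenitors no tested member was called against srNMPs, beside 3.43% of all genes (1.73% higher and 1.69% lower). DLL3 averaged 27.6 ± 12.1 FPKM (SD, n = 4) against 7.57 ± 4.31, with no overlap between groups, and a log2 change of 1.77 ± 0.44 (limma adjusted p = 0.0759). The adjusted p was 0.247 without both RASS libraries, 0.0474 with their lines exchanged and 0.0424 without the HUES9 RABC library. HES7 averaged 0.00797 ± 0.0159 FPKM (SD, n = 4) against 0.950 ± 0.538, also with no overlap, and a log2 change of -0.91 ± 0.29 (limma adjusted p = 0.12). Its adjusted p was 0.363 without both RASS libraries, 0.0466 with a pseudocount of 0.1 FPKM and 0.0357 without the H1 passage 8 srNMP library. LFNG differed by 0.45 (limma adjusted p = 0.61), by 0.34 without both RASS libraries (limma adjusted p = 0.863) and by -0.18 without the H1 RABC library. Both DLL3 and HES7 had an unadjusted p under 0.05. For each of these genes, 13 of 15 alternative fits left it uncalled with the same sign, and 2 passed the threshold. Tail bud genes fell, with 5 of 12 called lower and none higher and a median of -2.83 against 0.02 over all genes. The log2 change was -6.26 for FGF8 and -5.71 for FGF17, growth factors of the tail bud, and -4.0 for HES3, a repressor of neural progenitors. Of 21 other clock genes none was called, with 5 at an unadjusted p under 0.05, and of 18 other somite genes none was called, with 4 at that level. Proneural genes, neuronal fate factors and their targets, were called higher in 3 of 11, and genes of other mesoderm lower in 1 of 8. Without both RASS libraries, 25 genes in place of 484 were called in all. Then 1 of 12 tail bud genes was called lower, with a median of -2.42, and no gene of the clock, somite, proneural and other mesoderm lists was called, with 6, 2, 8 and 1 of them at an unadjusted p under 0.05. The gene still called among those named was FGF8 (log2 change -6.57, limma adjusted p = 0.00793), while FGF17 and HES3 each had a limma adjusted p of 0.0635.

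In neurons 1 of the 7 tested members was called against srNMPs, DLL3, beside 52.1% of all genes (28.8% higher and 23.2% lower). DLL3 averaged 24.9 ± 18.1 FPKM (SD, n = 4) against 7.57 ± 4.31, a log2 change of 1.44 ± 0.44 (limma adjusted p = 0.0303). The groups overlapped, since H1 ventral neurons stood at 8.01 and HUES9 passage 8 srNMPs at 13.5. The call was lost without any 1 of 6 libraries (each of the 4 neuron libraries and the H1 srNMPs of passage 8 and of passage 25), with limma adjusted p of 0.0544 to 0.107. MEOX1 differed by -0.45 (limma adjusted p = 0.102), and by -0.72 with a limma adjusted p of 0.00431 without the HUES9 passage 25 library. HES7 and LFNG differed by -0.32 and 0.50 (limma adjusted p = 0.378 and 0.42). Of 21 other clock genes, 6 were called higher and 2 lower, with a median of 0.25 against 0.05 over all genes. HEY1, a Notch effector, rose by 3.52 ± 0.67 (limma adjusted p = 0.00454), and NOTCH1, a Notch receptor, by 2.26 ± 0.44 (limma adjusted p = 0.00496), from 15.5 to 75.1 FPKM. EPHA4, an ephrin receptor of somite boundaries and of axons, rose by 2.17. Of 18 other somite genes 4 rose and 2 fell, among them UNCX, a factor of the posterior somite and of spinal interneurons, which rose by 2.97, and EN1, which changed by -2.85. Tail bud genes fell in 8 of 12 and rose in none, with a median of -2.86. Proneural genes were called higher in 5 of 11, and of 8 genes of other mesoderm 1 rose and 1 fell.

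Muscle was set against srNMPs to ask which paraxial transcripts were present there. Of the 7 tested members 4 were called higher and 1 lower, beside 18.2% and 31.6% of all genes (49.8% in either direction). MEOX2 averaged 40.5 ± 18.4 FPKM (SD, n = 2) against 0.0120 ± 0.00957 (n = 4), a log2 change of 5.29 ± 0.09 (limma adjusted p = 2.38e-08). The MEOX2 change was 4.82 without the day 40 library and 5.76 without the day 50 library, a wider range than its standard error. MEOX1 averaged 9.84 ± 3.25 against 0.436 ± 0.533, a log2 change of 3.05 ± 0.26 (limma adjusted p = 0.000129). Both muscle libraries lay above all srNMP libraries for each of these genes. FOXC2 changed by 1.33 ± 0.06 (limma adjusted p = 5.51e-06), and by 0.68 without the day 40 library and 1.98 without the day 50 library. MSGN1 changed by 0.64 ± 0.09 (limma adjusted p = 0.00124), by 0.94 without day 40, and by 0.34 without day 50 (limma adjusted p = 0.0462). DLL3 fell by 2.90 on the log2 scale (SE 0.57, limma adjusted p = 0.0052), from 7.57 to 0.131 FPKM. LFNG differed by 0.82 (limma adjusted p = 0.324), at 17.8 ± 1.32 against 10.5 ± 3.07 FPKM. HES7 differed by -0.79 (limma adjusted p = 0.115), and it was called without the H1 passage 8 library (limma adjusted p = 0.0385) and with a pseudocount of 0.1 FPKM (limma adjusted p = 0.0255). The 5 called genes passed the threshold in every alternative fit that was run, with the same direction. Those fits draw on the same muscle libraries, and MEOX2, FOXC2 and MSGN1 entered the test only through them. The alternatives are therefore no independent support for these calls.

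**Figure D5:**
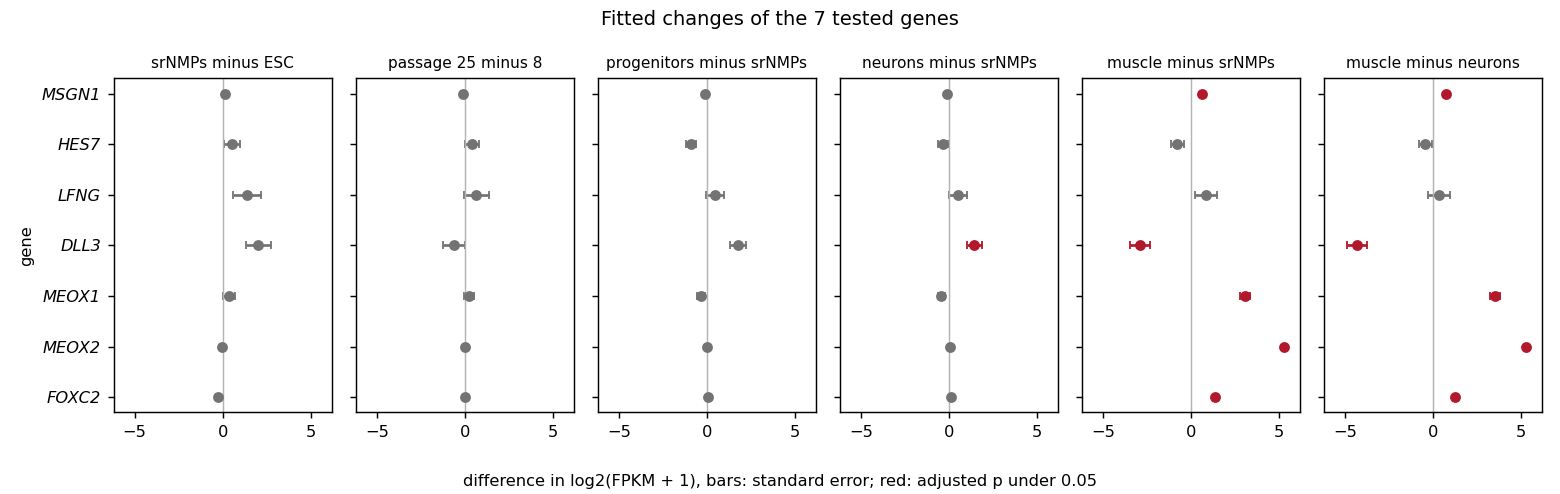
Log2(FPKM + 1) change with its standard error for the 7 tested members in 6 comparisons between groups, with red points for limma adjusted p under 0.05 and grey points for the rest. MEOX2, MEOX1, FOXC2 and MSGN1 lie above 0 and DLL3 below 0 in both muscle comparisons, and DLL3 is the only red point in neurons against srNMPs.

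Among the 18 other somite genes tested, 11 were called higher in muscle than in srNMPs and none lower, with a median of 1.36 against -0.22 over all genes. TWIST1, a mesenchymal basic helix-loop-helix factor, rose by 4.0 and PDGFRA, a growth factor receptor of sclerotome and mesenchyme, by 4.86. PAX9, a sclerotome factor named here after its values were seen, stood at 9.22 FPKM at day 40 and 6.97 at day 50 and was listed at 0 in all 4 srNMP libraries. The other clock genes moved in both directions, 5 higher and 4 lower of 21, with a median of -0.02. NRARP, a Notch feedback inhibitor, fell by 4.10 on the log2 scale (limma adjusted p = 0.00175), whereas HEYL, a Notch effector of muscle and vessels, rose by 3.01 (limma adjusted p = 0.00264) and RSPO3, a Wnt amplifier, by 3.25. Tail bud genes fell in 10 of 12 and rose in none. The log2 change was -6.95 for FGF17, -6.48 for FGF8 and -5.40 for SOX2, a neural and stem cell factor. Of 8 other mesoderm genes 3 rose and 1 fell. OSR1, a factor of intermediate and lateral mesoderm and of connective tissue, rose by 4.17, and PAX8 changed by -4.76.

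Markers of other cells moved with the muscle results. All 11 tested myogenic genes and all 11 tested fibroblast and mesenchyme genes were called higher than in srNMPs. The fibroblast and mesenchyme list summed to 19160 FPKM at day 40 and 11840 at day 50, against 14.35 to 23.12 in srNMPs, with COL1A1, the main collagen of connective tissue, at 8504 and 4700. The myogenic list summed to 3117 and 4823, against 2.44 to 14.4 in srNMPs. Of 6 tested endothelial genes 2 were called higher than in srNMPs and none lower, and 2 of the list reached 1 FPKM in each muscle library. The endothelial list summed to 5.89 and 4.42 FPKM against 0.354 to 2.39. Its defining genes PECAM1 and CDH5 were at or near 0, with PECAM1 at 0 and 0.0164 and CDH5 at 0.161 and 0.131. Of 9 neural crest and Schwann cell genes 3 were called higher and 1 lower, and their sum was 147.2 and 190.5 FPKM against 22.23 to 61.11 in srNMPs. At day 40 5 of these genes reached 1 FPKM and at day 50 all 9, against 5 to 8 in srNMPs. SOX10, a defining factor of that lineage, was at 0.40 and 1.04. From day 40 to day 50, which were single libraries with no test, MEOX2 was 1.95 times, MEOX1 1.61 times and FOXC2 4.78 times higher at day 40. The fibroblast and mesenchyme list was 1.62 times and the endothelial list 1.33 times higher at day 40. MSGN1 was 2.83 times and the myogenic list 1.55 times higher at day 50. The remaining lists were also higher at day 50, from 1.09 times for other mesoderm to 2.75 times for pluripotency genes (0.537 and 1.47 FPKM). The part of these other cells in the member results was not tested.

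Against neurons, muscle held the same 4 members higher and DLL3 lower, beside 14.6% and 31.9% of all genes (46.5% in either direction); this comparison uses the same muscle libraries as the one before. MEOX2 changed by 5.25 ± 0.09 (limma adjusted p = 2.55e-08), MEOX1 by 3.5 ± 0.26 (limma adjusted p = 5.96e-05), FOXC2 by 1.22 ± 0.06 (limma adjusted p = 9.06e-06) and MSGN1 by 0.74 ± 0.09 (limma adjusted p = 0.000653). The MEOX2 change was 4.78 without the day 40 library and 5.72 without the day 50 library. In the same order the FOXC2 change was 0.57 and 1.87, and the MSGN1 change 1.04 and 0.44. DLL3 fell by 4.34 on the log2 scale (SE 0.57, limma adjusted p = 0.000924). LFNG differed by 0.32 (limma adjusted p = 0.707) and HES7 by -0.47 (limma adjusted p = 0.328). Other somite genes were called higher in 11 of 18 and lower in 2, and other clock genes higher in 5 of 21 and lower in 8. Proneural genes were lower in 7 of 11 and tail bud genes in 1 of 12, with none higher in either list.

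Between the lines no member was called, and 0% of all genes were, with 512 of 14129 at an unadjusted p under 0.05 and no member among them. Without both RASS libraries 65 genes were called, none of them a member.

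Genes with the most similar profile were sought among 11271 genes that reached 5 FPKM, by Pearson correlation of log2(FPKM + 1) over the 15 libraries, as a description. The nearest to DLL3 were STX2 (0.966), PPP2R3C (0.955) and MED17 (0.951), and to LFNG, NME6 (0.855), TBC1D20 (0.815) and ADCY6 (0.802). The nearest to MEOX1 were TMEM119 (0.990), CD248 (0.982) and NFE2 (0.982), and to MEOX2, GRP, COL6A6 and NUPR1 (each above 0.999). MEOX2 was near 0 outside the 2 muscle libraries, so its correlations rest on those 2. MEOX1 was at 1.196 FPKM or less outside muscle, so its correlations rest largely on the same 2 libraries. With a pseudocount of 0.1 FPKM they were 0.942 for TMEM119, 0.918 for CD248 and 0.910 for NFE2.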

How the data were processed

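Messenger RNA of 15 cultures was sequenced from TruSeq Stranded mRNA libraries on a NovaSeq instrument, per the labels' protocols. The authors deposited 1 table of FPKM for 17999 gene symbols. The submitters' processing notes name the build hg18 and the tools HISAT2, Trimmomatic, Cufflinks and HTSeq; versions, settings and the use of strand are not given in the sources used here. The table has 1 more column of values, under the heading H1, that could not be tied to a sample; it was left out. Samples were grouped by their titles.

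The FPKM were taken as deposited and log2(FPKM + 1) was fitted with limma 3.58.1 in R 4.3.3 over all 15 libraries, with a mean per group, a cell line term, an intensity trend and 5 residual degrees of freedom. The 14129 genes that reached 1 FPKM in any library were tested, and p-values were two-sided and Benjamini-Hochberg adjusted over all of them in each of 7 comparisons. Members were called at an adjusted p under 0.05. The fit was tested on simulated data, with changes planted only in genes of higher level and the same spread for all genes. That test does not speak for genes near 0 in most groups, such as MEOX2, FOXC2 and MSGN1. Replicates pair by cell line, from the labels; across genes, the line differences of 15 pairs of groups correlated at -0.533 to 0.377. Nothing says that libraries come from repeated differentiations. With the cell line term, p-values measure only how far the difference between the 2 lines varies from group to group, which may be technical in part.

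FPKM hold no counts. After scaling by relative depth, 96.2% of 3529 low FPKM values of 478 genes were whole multiples of the lowest non-zero value of their gene (within 2%). That lowest value was taken as 1 fragment and is whole by definition. The relative depths were fitted on these same values, so this share is no independent check either. Estimated fragments were derived for 9 of the 10 members (not LFNG). The unit of each member was chosen so that its values of at most 200 fragments were whole within 0.1. That these 84 values are whole is therefore the rule of choice and not a check of the estimates. A 0 can be a failed estimate, so such genes are said to be listed at 0. A fold on the log2(FPKM + 1) scale understates changes of low genes.

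Alternatives were a pseudocount of 0.1 FPKM, no filter, equal totals, quantile normalization, no cell line term and each library left out, and, chosen after seeing the data, both RASS libraries left out or their lines exchanged. The members and gene lists were chosen with earlier results of these data known. Named were every member, the 3 called genes with the largest change at 5 FPKM or more in a comparison and list, and label-checking genes; 1 gene chosen by this rule is left out and not reported here. Promoters are RefSeq sequences of GRCh38.p14.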

Additional observations from a re-analysis of the deposited data

Results flagged for a closer look

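HES7 moved in opposite directions in the 2 lines between passage 8 and passage 25. In H1 srNMPs it went from 0.295 to 1.59 FPKM, a log2(FPKM + 1) change of 1.00, and in HUES9 srNMPs from 1.07 to 0.842, a change of -0.17. The changes differ by 1.17. With 1 library in each line and passage, this difference was not tested.

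MEOX1 did the same. It went from 0.406 to 1.196 FPKM in H1, a change of 0.64, and from 0.120 to 0.0211 in HUES9, a change of -0.13. The changes differ by 0.78, and this difference was not tested either. MESP2 (0.295 in H1 and -0.038 in HUES9) and MSGN1 (0.031 and -0.257) also had opposite signs, at under 1 FPKM in every srNMP library.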

How the results depend on the processing

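Of 11 called member results, 139 of 145 alternative values kept their direction and call, and 6 lost the call, all of them DLL3 in neurons against srNMPs. The muscle results among them all draw on the same day 40 and day 50 libraries. Of 38 member results that were not called, 495 of 527 values stayed so with the same sign, 16 passed the threshold and 16 changed sign.

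The number of tested members called in srNMPs against ESCs was 0, and it was 2 with a pseudocount of 0.1 FPKM (DLL3 and FOXC2) and 1 (FOXC2) without the filter, with quantile normalization, without the replicate block and with the RASS lines exchanged. In progenitors against srNMPs it was 0, and 1 with a pseudocount of 0.1 FPKM (HES7), 1 with the RASS lines exchanged (DLL3) and 0 to 1 with a library left out. In neurons against srNMPs it was 1, and 2 with a pseudocount of 0.1 FPKM and without the filter (FOXC2 added both times) and 0 to 2 with a library left out; the 2 comes without HUES9 passage 25 srNMPs (MEOX1 added). In muscle it was 5 against srNMPs, and 5 to 6 with a library left out.

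The replicate block is the cell line. Without the replicate block, 772 genes in place of 484 were called in progenitors against srNMPs; no other count of genes moved by over 1.5 times. That count was 191 without the filter, 25 without both RASS libraries, 875 with the RASS lines exchanged and 45 to 2281 with a library left out. In HUES9 against H1, 0 genes became 65 without both RASS libraries, 147 with their lines exchanged and 0 to 66 with a library left out. With a library left out, 1503 to 2705 genes were called in srNMPs against ESCs (2354 in all libraries) and 1 to 5 in passage 25 against passage 8 (0).

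Log2 changes that changed sign were all uncalled. With quantile normalization MEOX2 was -0.0044 in passage 25 against passage 8 and -0.0039 in neurons against srNMPs. MEOX2 in HUES9 against H1 was 0.0006 without both RASS libraries and 0.0117 with their lines exchanged, where FOXC2 was -0.006. With a library left out, passage 25 against passage 8 ranged from -0.2844 to 0.7946 for MEOX1, -0.1437 to 0.9767 for HES7, -0.0128 to 0.0144 for MEOX2, -0.2686 to 0.0429 for MSGN1 and -0.0017 to 0.0308 for FOXC2. LFNG ranged from -0.1842 to 1.0926 in progenitors against srNMPs and from -0.3565 to 0.2721 in HUES9 against H1, where MEOX2 ranged from -0.0198 to 0.0006. The cause was not tested.

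With all libraries scaled to equal totals, the median change of all genes in neurons against srNMPs was 0.285 in place of 0.053 and 72% in place of 55.4% of called genes were higher; with quantile normalization this share was 44.8%. In muscle against srNMPs 49.3% in place of 36.5% were higher with equal totals, with a median of -0.014 in place of -0.224, and in muscle against neurons 46.2% in place of 31.3% with quantile normalization. In progenitors it was 61.8% in place of 50.6% with equal totals. Without the filter, 43.1% in place of 52.4% were higher in srNMPs against ESCs. The depth leaves TBX6, MSGN1, MESP2 and TCF15 at 64 estimated fragments or fewer in each library, where an order of groups rests on few reads.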

Other observations

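HES7, MESP1 and RIPPLY2 were higher in the H1 than in the HUES9 neuron libraries, and LFNG and DLL3 were lower. MESP1, a basic helix-loop-helix factor of early and presomitic mesoderm, stood at 3.62 FPKM in H1 ventral and 1.35 in H1 dorsal neurons, against 0.491 and 0.321 in those of HUES9. RIPPLY2, a repressor that ends the presomitic state, stood at 3.17 and 1.01 against 0.316 and 0.0864. HES7 was ordered the same way, at 1.94 and 0.440 against 0.182 and 0.0543. LFNG and DLL3 were lower in the H1 library of each neuron type, and the 23 other clock and presomitic genes summed to 332.4 (dorsal) and 220 FPKM (ventral) in H1 against 545.2 and 358 in HUES9. MESP1 and RIPPLY2 were named after their values were seen, and with 1 library in each line and neuron type the difference between lines within neurons was not tested. Over the 6 paired groups, the HUES9 minus H1 change was -0.34 for MESP1 and -0.35 for RIPPLY2 (limma adjusted p = 0.883 for each).

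NKX3-2, a sclerotome factor also named after its values were seen, followed the line labels in all paired groups but RASS. It was at 0.0518 FPKM or less in the 5 other H1 libraries of paired groups and at 1.77 or more in the 5 HUES9 ones, and in RASS at 4.81 in the library labelled H1 and 0.0395 in that labelled HUES9.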
